A study of Mus musculus with 4 samples.

Results

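The genes described here are Atf4 and 9 genes of the amino acid stress response around it, chosen as a fixed list of 10 symbols (Atf3, Atf4, Ddit3, Trib3, Asns, Chac1, Psat1, Phgdh, Shmt2 and Sesn2), each matched exactly to its row in the deposited tables. All 10 were found once in each of the 4 libraries, among 24310 to 24438 named symbols per library. The libraries come from C2C12, a mouse cell line of myoblasts that fuse into myotubes after a switch from growth medium to low-serum differentiation medium (DM), so every value belongs to 1 cell line in culture. Total RNA depleted of rRNA was sequenced from unmodified myoblasts (MB, labelled DM -24 h) and unmodified myotubes (MT, DM 72 h). PolyA RNA was sequenced from cells in DM for 48 h that had received an siRNA against hnRNPL (si-hnRNPL) or a control siRNA (si-NC), both titled as MT, while the cell type label of all 4 libraries reads C2C12 myoblasts. Levels are FPKM, fragments per kilobase of transcript scaled to the mapped fragments of the library, each with the 95% interval that Cufflinks gave it. That interval covers counting and assignment within a library, and with 1 library in each group no difference below has a replicate check or a p-value.

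The integrated stress response begins when kinases that sense missing amino acids, unfolded protein in the endoplasmic reticulum (ER), viral RNA or heme shortage phosphorylate the translation factor eIF2 on its alpha subunit. Most translation then slows, while Atf4 mRNA, held back by upstream open reading frames, is translated more, so that the amount of Atf4 mRNA is only a part of ATF4 activity. The ATF4 protein, paired with another bZIP protein, binds C/EBP-ATF composite elements and switches on enzymes and transporters that restore amino acids. Proliferating cells also use the serine and one-carbon enzymes of this set for nucleotide synthesis.

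The C/EBP-ATF element was searched as TGATGNAA on both strands of the RefSeq promoter windows (GRCm38.p6), which run from 250 bases before the annotated start to the 50 bases that begin at it. All 10 genes matched the promoter table, with 11 windows, since Psat1 has 2. The windows of Atf3, Trib3, Asns and Chac1 held 1 match each, 4 of 10 genes, against 4.51% of the 27025 genes in the table. The genes were listed for their place around ATF4, which binds this element, so the shares are a description and not a test. Bases around each match are shown on the strand of the gene, 5′ to 3′, with the match in capitals, so that the composite element can be read beside the values of its gene.
Atf3: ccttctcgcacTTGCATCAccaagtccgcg
Trib3: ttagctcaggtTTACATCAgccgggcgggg
Asns: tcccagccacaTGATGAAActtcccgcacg
Chac1: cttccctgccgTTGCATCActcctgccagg
These stretches lie at chr1:191183425-191183454, chr2:152344028-152344057, chr6:7693214-7693243 and chr2:119351038-119351067, on the minus strand for the first 3 and on the plus strand for Chac1.

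The match on the Asns window read TGATGAAA and began 23 bases before the start, on the strand of the gene. The other matches were on the opposite strand, where those of Atf3 and Chac1 read TGATGCAA and that of Trib3 read TGATGTAA. They began at -110 in Atf3 and -193 in Chac1, and 14 bases after the start in Trib3, where the stretch is transcribed. The palindromic cAMP response element TGACGTCA was found in 0 of the 10 genes (2.03% of all genes) and the ER stress element, searched on both strands as the motif of that name, in 0 of 10 (0.137%). The matches are letters in short windows and show no binding.

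**Figure D1:**
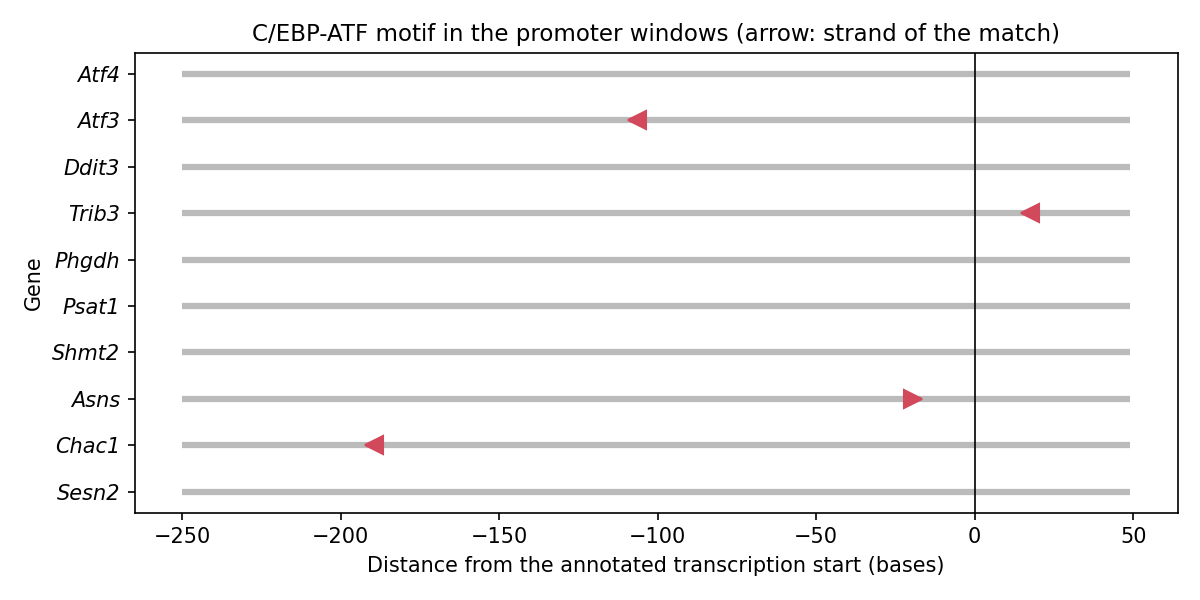
Position of the C/EBP-ATF motif (arrows, pointing along the strand of the match) in the promoter windows of the 10 genes (grey bars), in bases from the annotated start. Arrows are seen for Atf3, Trib3, Asns and Chac1, and only that of Trib3 lies after the start.

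Atf4 is the central regulator of the set. Its FPKM was 239.9 (95% interval 237 to 243) in MB, 175 (172 to 178) in MT, and 195 (188 to 202) in si-NC against 230.0 (221 to 239) in si-hnRNPL. Among the 10 genes it stood first in MT, si-NC and si-hnRNPL, while in MB its interval overlapped that of Phgdh, the highest there. In each library 96.9% to 98.0% of the 11074 to 11410 symbols that reached an FPKM of 1 lay below it.

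Atf3 and Ddit3 encode bZIP factors that are induced downstream of ATF4, and Ddit3, also called CHOP, is linked to cell death under prolonged ER stress. Atf3 was at 4.69 (4.34 to 5.04) in MB, 1.83 (1.62 to 2.05) in MT, and 2.96 (2.52 to 3.41) in si-NC against 3.01 (2.46 to 3.56) in si-hnRNPL, the lowest of the 10 in every library. Ddit3 was at 26.2 (24.9 to 27.6) in MB, 22.9 (21.6 to 24.1) in MT, and 19.8 (17.7 to 21.9) in si-NC against 25.8 (22.9 to 28.7) in si-hnRNPL. Ddit3 thus varied least between MB and MT, and MB and MT did not overlap in either gene. The Ddit3 locus overlaps that of Mars, a tRNA synthetase gene, by 68 bp, and whether abundance estimation used strand is not given in the sources used here.

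Trib3 encodes a pseudokinase that binds ATF4 and AKT and is itself a target of ATF4. Its FPKM was 5.27 (4.90 to 5.64) in MB, 1.92 (1.71 to 2.14) in MT, and 3.85 (3.35 to 4.35) in si-NC against 5.36 (4.63 to 6.09) in si-hnRNPL. The MT library was the lowest and the interval of si-hnRNPL lay above that of si-NC. The intervals of Trib3 and Atf3 overlapped in MB, MT and si-NC, so their order there is not set by these values.

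Phgdh, Psat1 and Shmt2 belong to serine and glycine synthesis. Phgdh catalyses the first committed step from a glycolytic intermediate to serine, and its FPKM was 244 (241 to 247) in MB, 72.1 (70.7 to 73.5) in MT, and 72.4 (70.1 to 74.6) in si-NC against 86.9 (83.9 to 90.0) in si-hnRNPL. Psat1, the transaminase of the next step, was at 164 (162 to 166) in MB, 81.3 (79.9 to 82.6) in MT, and 122 (117 to 128) in si-NC against 145 (138 to 152) in si-hnRNPL. Shmt2, the mitochondrial enzyme that splits serine into glycine and a one-carbon unit, was at 99.3 (97.7 to 101) in MB, 28.2 (27.4 to 29.0) in MT, and 37.8 (35.9 to 39.7) in si-NC against 36.4 (34.3 to 38.6) in si-hnRNPL. In all 3 genes MB was the highest library. Phgdh stood above Psat1 in MB and below it in the other libraries, with intervals apart in each. RefSeq lists a pseudogene of Phgdh, and how reads shared with it were divided is not given in the sources used here. The Shmt2 locus overlaps that of Ndufa4l2 by 32 bp.

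Asns makes asparagine and is a classical target of the amino acid response. It was at 105 (103 to 107) in MB, 37.8 (36.8 to 38.8) in MT, and 26.9 (25.5 to 28.2) in si-NC against 33.4 (31.5 to 35.2) in si-hnRNPL. Chac1, which degrades glutathione, was at 22.3 (21.4 to 23.1) in MB, 16.0 (15.3 to 16.8) in MT, and 10.7 (9.71 to 11.6) in si-NC against 14.8 (13.4 to 16.2) in si-hnRNPL. Both genes were highest in MB and lowest in si-NC, although the total and polyA libraries differ in preparation and in time in DM and are set side by side only.

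Sesn2 encodes a leucine-binding inhibitor of mTORC1 signalling. It was at 9.29 (8.87 to 9.72) in MB, 4.51 (4.22 to 4.79) in MT, and 4.41 (3.95 to 4.86) in si-NC against 4.97 (4.37 to 5.57) in si-hnRNPL. The MB library stood above the others, whose intervals overlapped one another.

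**Figure D2:**
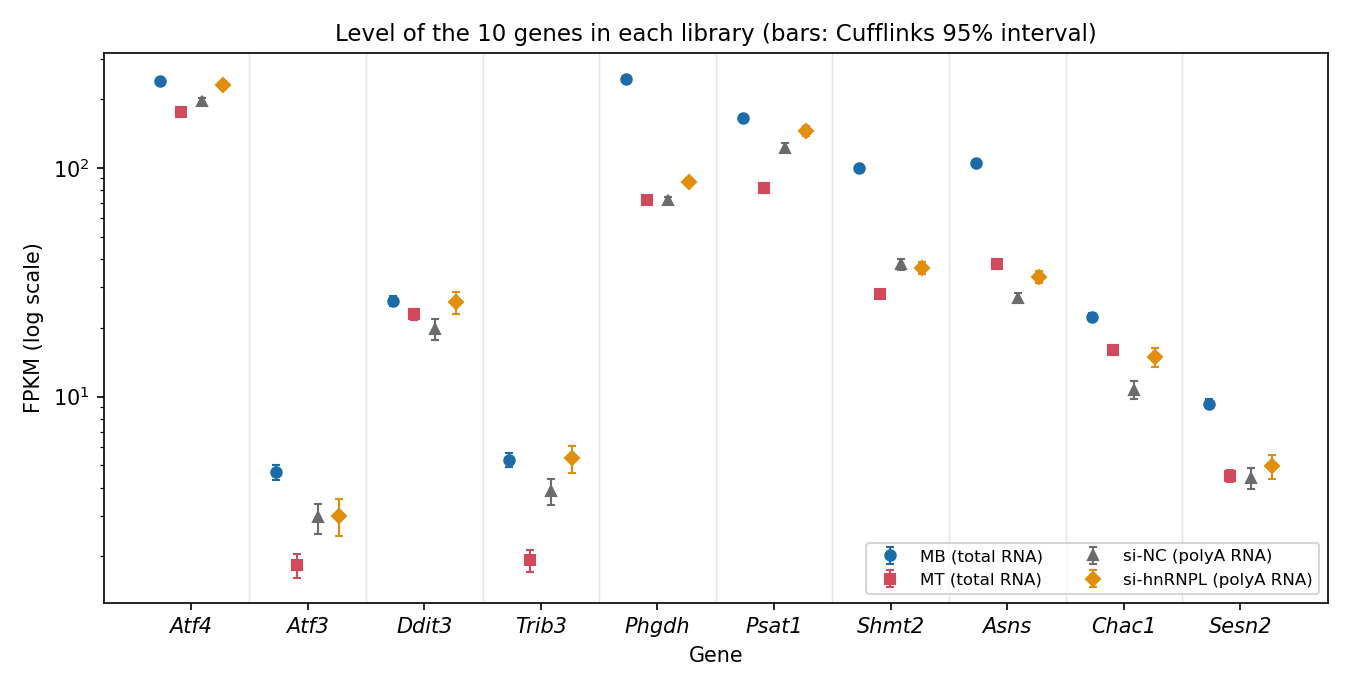
FPKM (log axis) of each of the 10 genes in MB and MT (total RNA) and of si-NC beside si-hnRNPL (polyA RNA), with bars for the 95% interval of Cufflinks. MB lies above MT for each gene, and si-hnRNPL lies above si-NC with intervals apart for 7 genes.

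The ranges of level were wide, from 4.69 to 244 in MB and from 1.83 to 175 in MT. Half-widths ran from 1.08% of the value (Phgdh in MB) to 18.3% (Atf3 in si-hnRNPL). Read as counting error alone, these 2 widths would equal 34603 and 120 fragments, but the intervals also hold assignment error. In the polyA libraries Atf3, Ddit3, Trib3 and Sesn2 had half-widths from 10.3% to 18.3%, and those of the other 6 genes lay between 3.11% and 9.50%.

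The comparison of MT with MB asks how these genes differ once the cells have differentiated. All 10 genes were lower in MT, and in each the FPKM intervals of MB and MT did not overlap. In bulk RNA, fewer cells that express a gene and less RNA per cell cannot be told apart. The enzymes Shmt2, Phgdh and Asns stood furthest apart. Shmt2 in MT was at 28.4% of its MB level (95% interval 27.5% to 29.3%), Phgdh was at 29.5% (28.9% to 30.2%) and Asns was 2.78 times lower in MT than in MB. Ddit3 in MT was at 87.2% of MB (80.7% to 93.8%), Atf4 at 72.9% (71.4% to 74.4%) and Chac1 at 72.0% (67.7% to 76.3%).

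As log2((FPKM + 1) ratio), MT over MB, the genes ran from -1.78 (-1.83 to -1.74) for Shmt2 to -0.19 (-0.29 to -0.09) for Ddit3. A gene was called at an absolute log2 value of 0.58, a fold of about 1.5, and 7 of the 10 were called lower while 0 were called higher. Of the 11742 named genes that reached an FPKM of 1 in MB or MT, 28.6% were called lower and 15.5% higher. Besides Shmt2, the 7 were Phgdh at -1.75, Asns at -1.45, Trib3 at -1.10, Psat1 and Atf3 at -1.01 each and Sesn2 at -0.90. Atf4 (-0.45), Chac1 (-0.45) and Ddit3 (-0.19) did not reach the threshold. The median of the 10 was -1.01 beside -0.20 for all genes tested. Intervals of the libraries were apart on the lower side for 10 of 10 genes, against 54.3% of all genes tested, and on the higher side for 0, against 32.1%.

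These 3 enzymes also stood low in the whole distribution. Only 467 tested genes had a lower log2 value than Shmt2, 486 than Phgdh and 706 than Asns, while 51.0% lay below Ddit3 and 35.3% below Atf4. Among named genes that reached an FPKM of 1 in MB and also in MT the median was -0.23, and when it was subtracted the same 7 genes were called lower and Ddit3 moved to 0.04, on the other side of 0. Over all genes tested that centring turned the split from 15.5% higher and 28.6% lower to 22.8% and 18.6%. When the libraries were scaled to their upper quartile, the split was 26.3% and 15.7%, the same 7 genes were called lower and Ddit3 stood at 0.16. Atf4 moved from -0.45 to -0.23 with centring and to -0.10 with upper-quartile scaling, and Chac1 moved from -0.45 to -0.22 and -0.11.

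The labels of MB and MT were checked on marker lists. All 8 myotube markers were called higher in MT, with Myog, a myogenic transcription factor, at 0.695 FPKM in MB and 251 in MT, Myh3 at 0.101 and 121, and Ckm at 0.00961 and 66.3. Myog was the highest of the list (7.21) and Des the lowest (0.98). All 7 proliferation markers were called lower, with Mki67 at 62.2 and 15.6 and Top2a at 143 and 29.2, from Ccnb1 (-3.08) to Pcna (-1.70), and their summed FPKM was 792 in MB and 165 in MT. Of all genes tested 15.5% were called higher and 28.6% lower. The proliferation markers were lower in MT, as the 10 genes were, and the myotube markers were higher. The part of either list in the difference of the 10 genes was not tested. Among 6 fibroblast and adipocyte markers, Thy1, Adipoq and Fabp4 stayed under 1 FPKM in all 4 libraries, while Dcn was at 0.503 in MB, 63.1 in MT, 330.2 in si-NC against 238 in si-hnRNPL. Pparg, the adipocyte factor, was the lowest of the 3 tested in MT over MB (-1.68), where Pdgfra was at 0.48. In si-hnRNPL over si-NC Pparg was at 0.301 with overlapping intervals, and Pdgfra nearly level at 0.299 with intervals apart.

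The comparison of si-hnRNPL with si-NC asks what differs when hnRNPL is targeted during differentiation. Hnrnpl mRNA itself was at 111 FPKM in MB, 63.0 in MT, and 95.1 in si-NC against 85.9 in si-hnRNPL. The mRNA level in si-hnRNPL was thus 90.4% of si-NC (86.7% to 94.1%). This is mRNA in 1 library per group and does not give the protein level, for which the paper examined the knockdown by Western blot. Of the 10 genes, 9 were above 0 in log2((FPKM + 1) ratio), si-hnRNPL over si-NC, and 1, Shmt2, was below it. Over all 11325 genes tested, 5431 were above 0 and 5894 below. Called at an absolute value of 0.58, 0 of 10 were higher and 0 lower, and of the 11325 genes tested 1.31% were higher and 0.883% lower.

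By intervals, 7 of the 10 genes were higher in si-hnRNPL without overlap and 0 were lower, against 14.2% and 19.5% of all genes tested. The regulators Trib3 and Ddit3 and the enzyme Chac1 differed most. Chac1 in si-hnRNPL was at 139% of si-NC (121% to 157%), a log2 value of 0.44 (0.27 to 0.62), and Trib3 was at 139% (113% to 165%), or 0.39 (0.17 to 0.61). Ddit3 was at 130.4% (110.1% to 150.7%), or 0.37 (0.15 to 0.58). Asns followed at 0.30 (0.20 to 0.41), Phgdh at 0.26 (0.19 to 0.33), Psat1 at 0.24 (0.15 to 0.34) and Atf4 at 0.24 (0.16 to 0.31).

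For Sesn2 (0.14, -0.05 to 0.33), Atf3 (0.02, -0.24 to 0.27) and Shmt2 (-0.05, -0.16 to 0.06) the interval included 0. For Atf3 and Shmt2 the estimate itself lay near 0. The median of the 10 was 0.25 beside -0.01 for all genes tested. Fewer genes lay above Chac1 (336) and Trib3 (437) than above Ddit3 (539) or Asns (836), out of the 11325 tested.

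Values that move with this comparison were as follows. Of the 8 myotube markers 7 were above 0, with 4 called higher, and the list ran from Myh1 (-0.07) to Ckm (0.71), with Ckm at 45.0 FPKM in si-NC against 74.3 in si-hnRNPL and Myog at 175 against 249. All 7 proliferation markers were below 0, from Mki67 (-0.62) to Ccnb1 (-0.31), with 2 called lower, Mki67 (24.3 and 15.5) and Top2a (64.3 and 42.2). The summed FPKM of the myotube markers was 3485 in si-NC against 5208 in si-hnRNPL, and that of the proliferation markers 407 and 297. Of the 11325 genes tested, 5431 were above 0, 1.31% were called higher and 0.883% lower. The part of these markers in the higher values of the 10 genes was not tested.

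The 10 genes have a median exon length of 2203 bases and a GC content of 55.2%, beside 2754 bases and 49.1% for protein-coding genes of the mm9 annotation. After the medians of genes of like length and GC content were subtracted, the median of the 10 was 0.20, with Psat1 highest at 0.31, Chac1 at 0.29, Trib3 at 0.26, Ddit3 and Asns at 0.25, Phgdh at 0.16 and Atf4 at 0.09. Sesn2 stood at 0.07, Atf3 at -0.08 and Shmt2 at -0.17. The share of all genes called with this subtraction was 0.548% higher and 0.648% lower, and 0 of the 8 myotube markers were called.

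**Figure D3:**
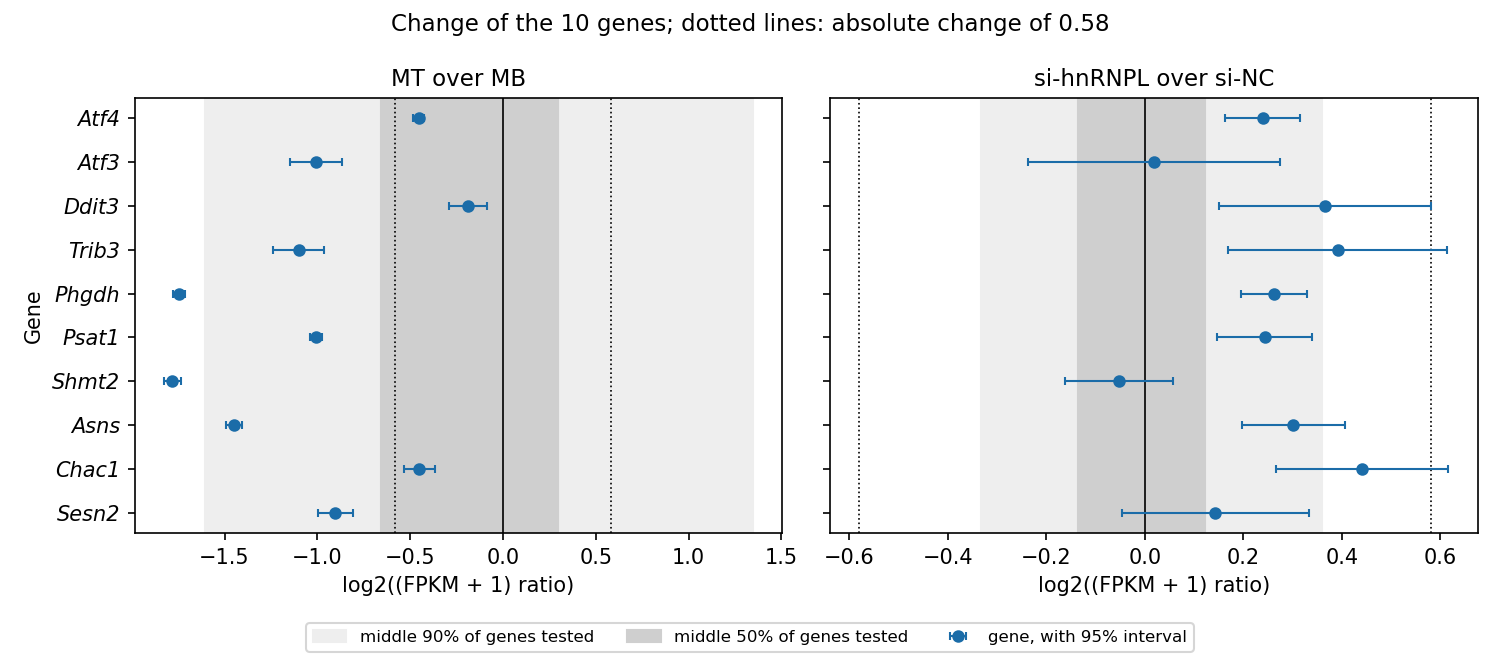
log2((FPKM + 1) ratio) of each of the 10 genes for MT over MB (left) and si-hnRNPL over si-NC (right), on x axes of different scale, with 95% intervals from Cufflinks and grey bands for the middle of all genes tested. On the left 7 genes lie below the dotted line at -0.58, and on the right all lie between the dotted lines.

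The values of both comparisons stand as follows for the members at their extremes. Shmt2 was the lowest of the 10 in both comparisons (-1.78 and -0.05), and Chac1, at -0.45 in MT over MB, was the highest in si-hnRNPL over si-NC (0.44). Ddit3 was at -0.19 in the first comparison and at 0.37 in the other.

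Other genes of the pathway were taken as listed groups. For every list below, counts called in si-hnRNPL over si-NC stand beside 1.31% higher and 0.883% lower of all genes tested. A count of 0 in a list this short is near those shares. The kinases that phosphorylate eIF2, its alpha subunit and the phosphatase subunits that reverse the mark had 2 of 8 genes called lower in MT and 0 higher, beside 28.6% and 15.5% of all genes tested, and a median of -0.33, with Eif2s1, the alpha subunit itself, lowest at -0.90 and Eif2ak2, the kinase PKR that senses viral RNA, highest at 0.20. Its count of 2 called genes went to 0 with upper-quartile scaling and to 4 with exon length and GC content subtracted. Between si-hnRNPL and si-NC 0 of 8 were called, with a median of -0.05, and the extremes were Eif2ak3, the ER stress kinase PERK (-0.32), and Ppp1r15a, an ATF4-induced phosphatase subunit (0.27). Partner and paralog factors of ATF4 had 0 of 7 tested genes called in either comparison and medians of -0.04 in MT and 0.20 in si-hnRNPL. Atf5 was lowest in MT (-0.42) and Cebpd highest (0.42). In si-hnRNPL Nupr1, a small stress-induced chromatin protein, was highest (0.43) and Atf2 lowest (-0.16).

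The other serine and one-carbon enzymes stood near the members of that pathway in MT, with 8 of 9 tested genes called lower, 0 higher and a median of -1.15. Of all genes tested 28.6% were called lower and 15.5% higher. Mthfd1l, a mitochondrial enzyme that releases formate, was lowest, at 40.5 FPKM in MB and 6.70 in MT (-2.43), and Mthfd2l, a mitochondrial folate dehydrogenase, was the highest at -0.29. After si-hnRNPL 0 of 10 were called, beside 1.31% higher and 0.883% lower of all genes tested. The median was -0.03, and Gldc (0.27) and Mthfd1 (-0.18) were the extremes. The other amino acid enzymes had 6 of 13 called lower in MT and 2 higher, the second a share near that of all genes tested. Their median was -0.47. Bcat1, the cytosolic branched-chain transaminase, was lowest at -2.91 (26.8 FPKM in MB and 2.71 in MT), and Glul, glutamine synthetase, highest at 1.37 (32.3 and 84.9). In si-hnRNPL 0 of 13 were called, with a median of 0.08, from Gpt2 at -0.10 to Bcat2 at 0.45.

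Amino acid transporters and tRNA synthetases, both of which include ATF4 targets, were lower in MT in most members. Of the 10 transporters tested, 6 were called lower and 0 higher, with a median of -0.88, from the neutral amino acid carrier Slc1a5 (-1.65) to Slc38a2 (-0.07). In MT the estimate for Slc7a1 failed in Cufflinks, and it was left out there. Of the 20 cytosolic tRNA synthetases 16 were called lower and 0 higher, beside 28.6% and 15.5% of all genes tested, with a median of -0.78, from Vars (-1.88) to Dars (0.01). The synthetases called numbered 9 with centring and 4 with upper-quartile scaling. Between si-hnRNPL and si-NC the medians of both lists were 0.05 and 0.06, with 0 genes called, and the extremes were Slc7a11, the cystine carrier (0.27), Slc25a22 (-0.21), Aars (0.27) and Vars (-0.12). Mars, whose locus overlaps that of Ddit3, was at -0.76 in MT over MB and 0.18 in si-hnRNPL over si-NC.

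Other stress targets of ATF4 were found in both directions in MT. Of 12 tested, 4 were called higher and 5 lower, beside 15.5% and 28.6% of all genes tested, with a median of -0.02. Fgf21, a secreted hormone induced by ATF4, was the highest, at 0.245 FPKM in MB and 54.3 in MT (log2 value 5.47, 5.32 to 5.62), and Gdf15, a stress-induced secreted factor, the lowest, at 15.7 and 6.53 (-1.15, -1.28 to -1.01). Between si-hnRNPL and si-NC 9 of 11 tested genes were higher with intervals apart and 1 was lower, beside 14.2% and 19.5% of all genes tested. By the threshold 1 was called higher and 0 lower, beside 1.31% and 0.883%, and the median was 0.24. The gene called was Fgf21, at 12.0 in si-NC against 21.3 in si-hnRNPL (0.79, 0.57 to 1.00), which was not called with exon length and GC content subtracted, and the lowest was Dusp16 at -0.37.

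Paralogs of the members, 5 of which also stand in another list, were found in both directions in MT. Of 7 tested, 3 were called higher and 2 lower, beside 15.5% and 28.6% of all genes tested. Shmt1, the cytosolic counterpart of Shmt2, was lowest at -2.35 (26.7 FPKM in MB and 4.43 in MT), whereas Sesn3 was highest at 0.95 (6.49 and 13.5). With si-hnRNPL 0 of 8 were called, from Shmt1 at -0.16 to Atf5 at 0.20.

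**Figure D4:**
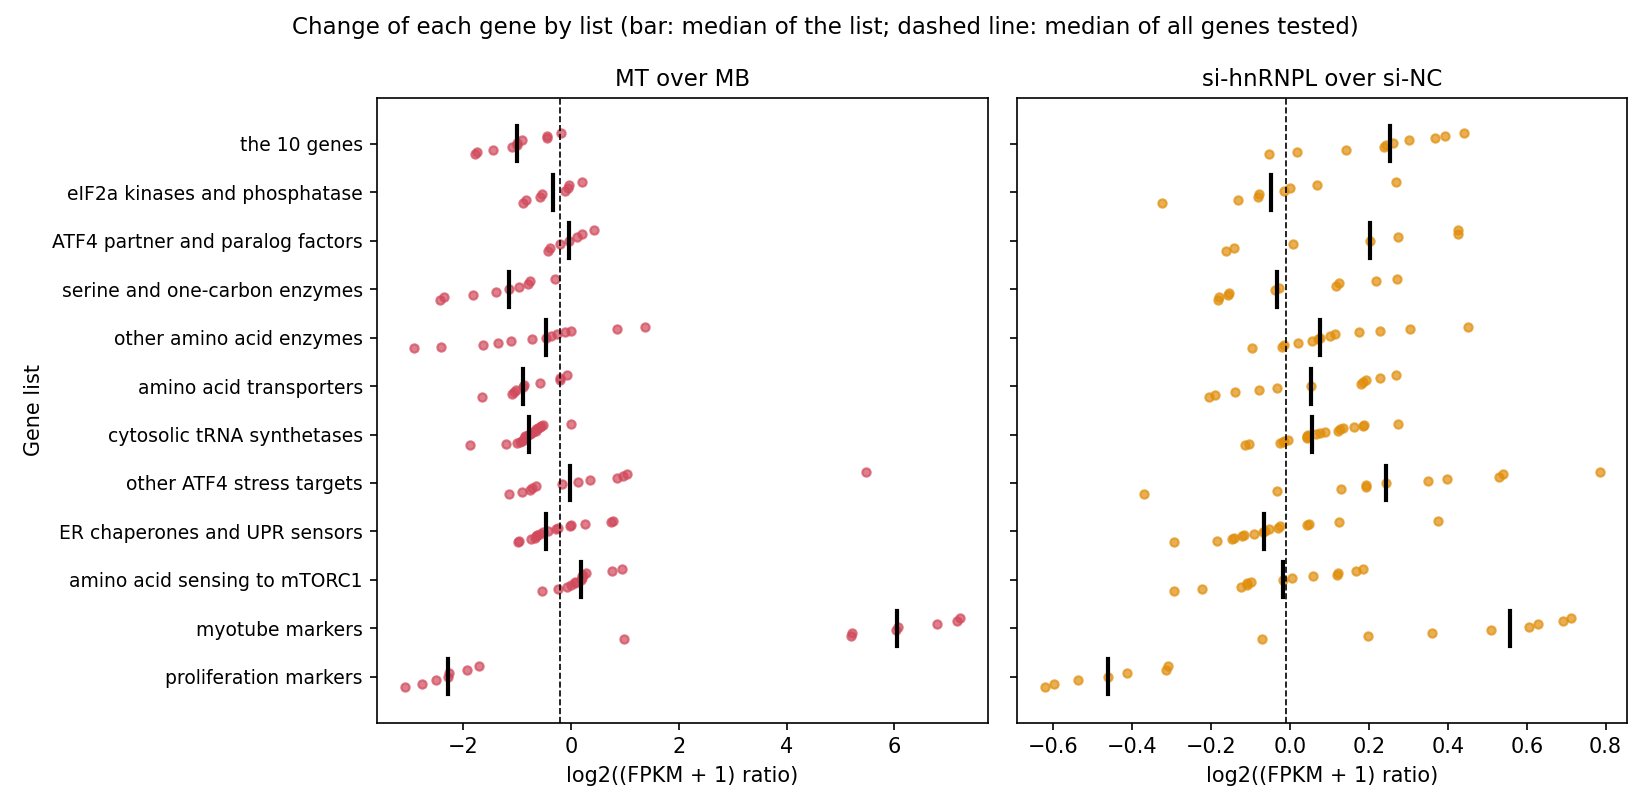
log2((FPKM + 1) ratio) of every tested gene (points) by list for MT over MB (left) and si-hnRNPL over si-NC (right), with a bar for the median of each list and a dashed line for the median of all genes tested. The x axes differ in scale. On the left the median of the 10 genes (-1.01) lies between those of the serine and one-carbon enzymes (-1.15) and the amino acid transporters (-0.88). On the right it (0.25) lies near those of the other ATF4 stress targets (0.24) and the partner and paralog factors (0.20).

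The loci of the 10 genes lie on 8 chromosomes of mm9, with Ddit3 (chr10:126727849-126733344) and Shmt2 (chr10:126954179-126959500) on chromosome 10 and Trib3 (chr2:152163161-152169796) and Chac1 (chr2:119176978-119180062) on chromosome 2. Sesn2 (chr4:132048722-132066371) was the 1 member whose locus held transcript units assembled from the total RNA reads, 4 in all, each within introns with 0 bp in annotated exons. The unit at chr4:132056395-132057417 was at 0.363 FPKM (0.221 to 0.506) in MB and 0.799 (0.593 to 1.00) in MT, while Sesn2 itself was higher in MB. The unit at chr4:132061703-132064025 was at 0.608 (0.492 to 0.724) and 0.852 (0.717 to 0.986), with intervals that overlapped slightly. The remaining units had overlapping intervals.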

How the data were processed

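The 4 libraries and their groups were taken from the sample labels. Per the study's methods, the authors removed adapters and poor bases, aligned with TopHat 2.0.13 on mm9 and obtained abundance from Cufflinks 2.1.1, so that the deposited FPKM values carry 95% intervals. Depth is known only through these intervals, which cover counting and assignment error only. Their widths were read as N = (2 x FPKM / half-width) squared fragments, which holds only where counting error alone sets the width.

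FPKM of entries with the same symbol were summed, entries with a failed estimate were left out (9 in MB, 10 in MT, 1 in si-hnRNPL and 0 in si-NC), and log2((FPKM + 1) ratio) was computed, a scale that understates changes of low genes. Genes that reached an FPKM of 1 in at least 1 library of a pair were compared with the 0.58 threshold. Half-widths were added in quadrature. All 10 genes passed this filter in both comparisons, also with the filter applied to both libraries. Loci are 1-based. Exon length and GC content came from GENCODE vM1 on the mm9 genome, and were subtracted as medians of 20 bins in 3 rounds. Promoter windows came from RefSeq (GRCm38.p6). Outside the 10, the genes named by rule are Hnrnpl, Myog, Myh3, Ckm, Mki67, Top2a and the highest and lowest of each list per comparison. Mars, Sesn1, Thy1, Adipoq, Fabp4, Pdgfra and Slc7a1 were chosen after their values were seen. The members and lists were chosen with earlier results of these data known. Python 3.11.15, numpy 2.4.6, pandas 2.3.3 and matplotlib 3.10.9 were used, and the scripts were tested on simulated data. Where the threshold, pseudocount, filter or scaling could alter a value, alternatives were run.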

Additional observations from a re-analysis of the deposited data

How the results depend on the processing

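Of the 10 genes, the same 7 were called lower in MT under pseudocounts of 0.1 and 0.01, both other filters, centring, upper-quartile scaling, single entries and the subtraction of exon length and GC content, and 6 at an absolute log2 value of 1. The median of the 10, -1.01, became -1.17 and -1.20 with pseudocounts of 0.1 and 0.01, -0.78 with centring, -0.71 with upper-quartile scaling and -0.90 with length and GC content subtracted. For si-hnRNPL over si-NC, 0 genes were called under all of these, and the median stayed between 0.20 and 0.26. The share of all genes called in si-hnRNPL over si-NC depended on the settings. It was 2.32% higher and 1.84% lower with a pseudocount of 0.1, 2.51% and 1.93% with 0.01, 0.638% and 0.421% without a filter, 0.548% and 0.648% with length and GC content subtracted, and 0.291% and 0.141% at a log2 value of 1. In MT over MB it was 22.8% and 18.6% with centring, 26.3% and 15.7% with upper-quartile scaling, 7.97% and 13.9% without a filter and 7.92% and 13.3% at a log2 value of 1. Some list counts in MT over MB moved by over 1.5 times. With centring and with upper-quartile scaling, tRNA synthetases called went from 16 to 9 and 4, ER genes from 8 to 4 and 5, and ATF4 partners from 0 to 1 in both. The eIF2 list went from 2 to 0 with upper-quartile scaling and to 4 with a pseudocount of 0.01 or with length and GC content subtracted. With an FPKM of 1 required in MB and MT alike, myotube markers went from 8 to 4 and fibroblast and adipocyte markers from 2 to 1. At a log2 value of 1, tRNA synthetases went to 3, serine enzymes from 8 to 5, other ATF4 targets from 9 to 3, paralogs from 5 to 2, and the ER, eIF2 and mTORC1 lists to 0. For si-hnRNPL over si-NC, with length and GC content subtracted and at a log2 value of 1, myotube markers went from 4 to 0 and Fgf21 was no longer called in both, and proliferation markers went from 2 to 1 and 0. No paired analysis was possible because each group holds 1 library, and for the same reason no library could be left out. With centring and upper-quartile scaling, MT over MB values were 0.04 and 0.16 for Ddit3, -0.23 and -0.10 for Atf4, and -0.22 and -0.11 for Chac1. Atf3, Ddit3, Trib3 and Sesn2 had the widest intervals of the 10 genes in the polyA libraries, relative to their values. Whether depth or the assignment of reads set these widths was not tested.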

Other observations

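The ER chaperones and sensors of the unfolded protein response, a branch of stress signalling that acts beside ATF4, were lower in MT in 13 of 16 genes, with 6 called lower, 2 called higher and a median of -0.47. Of all genes tested 7174 of 11742 were below 0, 28.6% were called lower and 15.5% higher, and the count of 8 ER genes called went to 4 with centring and 5 with upper-quartile scaling. Sdf2l1, an ER chaperone component, was lowest (24.8 FPKM in MB and 12.0 in MT, log2 value -0.99) and Dnajb9, a co-chaperone induced by XBP1, highest (10.8 and 19.2, 0.77). In si-hnRNPL over si-NC 0 of 16 were called, beside 1.31% higher and 0.883% lower of all genes tested. Intervals were apart on the lower side for 5 and the higher side for 2, beside 19.5% and 14.2% of all genes tested. The median of the ER list was -0.07, whereas that of the 10 amino acid stress genes was 0.25. Sdf2l1 was highest there (9.44 in si-NC and 12.5 in si-hnRNPL, 0.38) and Edem1, which directs misfolded proteins to degradation, lowest (12.3 and 9.87, -0.29).

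The genes that pass amino acid levels to mTORC1 had 2 of 13 genes called higher in MT, a share near the 15.5% of all genes tested. There 0 were called lower, beside 28.6% of all genes tested, and the median was 0.19 beside -0.20. Both genes called were sestrins, Sesn3 (6.49 FPKM in MB and 13.5 in MT) and Sesn1 (11.6 and 20.3), while Sesn2 was called lower (9.29 and 4.51). The lowest was Seh1l, a component of the GATOR complex and the nuclear pore, at -0.53. In si-hnRNPL over si-NC 0 of 13 were called, beside 1.31% higher and 0.883% lower of all genes tested. The median was -0.02, from Depdc5 at -0.29 to Nprl2 at 0.19, both GATOR subunits.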
